A study of Homo sapiens with 18 samples.

Results

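The genes described here belong to MHC class I antigen presentation and number 9 of the 19401 genes listed in any of the deposited tables. They are HLA-B, HLA-C, HLA-E, HLA-F, B2M, TAP1, TAP2, TAPBP and NLRC5, found by gene symbol and joined between tables by Entrez ID, and all 9 were listed in all 3 tables. RNA was sequenced from MCF10A, a non-tumorigenic human mammary epithelial line, grown without treatment and used at less than 30 passages. The groups were CBFB KO (3 samples) with its own WT (3 samples), and RUNX1 KO1 (4 samples) and RUNX1 KO2 (4 samples) with a WT group of 4 samples. The knockouts were made with CRISPR-Cas9. The submitters' design lists 1 clone for CBFB and names a pair of clones for RUNX1, taken here to be KO1 and KO2, so a difference between clones cannot be told apart from an effect of the deletion. RUNX1 is a DNA-binding transcription factor, and CBFB is the protein that pairs with RUNX factors and strengthens their hold on DNA.

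MHC class I molecules show peptides from inside the cell to CD8+ T cells and to natural killer cells. A heavy chain (HLA-B, HLA-C and the less variable HLA-E and HLA-F) folds with B2M, the beta-2-microglobulin light chain. The peptide is pumped into the endoplasmic reticulum by the transporter made of TAP1 and TAP2, and TAPBP (tapasin) holds the empty heavy chain beside that transporter. NLRC5 is a transactivator that enters the nucleus and raises transcription of the heavy chain genes, B2M and TAP1, and interferon gamma is a known inducer of the whole set. Epithelial cells express these genes at a basal level without an immune signal.

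Only 1 kind of value was used, the authors' mean of normalized counts over all libraries of a table, WT and knockout together. It is called the pooled mean below. The CBFB table pools 6 libraries, and the KO1 and KO2 tables pool 8 each. A pooled mean carries no SD and no n of its own, so no difference below has a test or a p-value, and none can be set against the spread between replicates. The knockout and the WT level of a gene cannot be told apart within a table, and the loss of CBFB or RUNX1 was not checked, since the columns of the authors' own comparison were not used. Reads of the HLA genes can also be split or lost between near-identical copies, and MCF10A's own HLA alleles differ from the reference, so the levels of HLA-B, HLA-C, HLA-E and HLA-F are uncertain in a way that B2M is not.

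The upstream regions show what the genes share and where they differ. The RefSeq promoter windows (GRCh38.p14, 250 bases before and 50 after the annotated start) held 7 of the 9 members. HLA-E and NLRC5 had no entry. The windows were searched on both strands for 5 motifs: the RUNX core TGTGGT, the interferon-stimulated response element (ISRE) core (GAAA, any 2 bases, GAAA), the NF-kappaB consensus, the CCAAT box and the cyclic AMP response element (CRE) core TGACG. The RUNX core was found in 0 of 7 windows, against 13.1% of all 35116 windows in the table. The ISRE core was found in 5 of 7 (3.57% of all windows), the NF-kappaB consensus in 5 of 7 (11.3%), the CCAAT box in 5 of 7 (34.6%) and the CRE core in 4 of 7 (24.6%). A match says only that the letters are present in the window, and a missing match says nothing about the factor.

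Of these regions, 5 are printed below, 5′ to 3′ on the strand of each gene, from 250 bases upstream to the base before the start. They were picked because HLA-B, HLA-C and HLA-F had the lowest ratios between tables, B2M is their shared light chain, and TAP2 had the highest ratio. Capitals mark the motif matches. The regions are chr6:31357180-31357429 (minus strand) for HLA-B, chr6:31272093-31272342 (minus strand) for HLA-C, chr6:29723184-29723433 (plus strand) for HLA-F, chr15:44711267-44711516 (plus strand) for B2M and chr6:32838740-32838989 (minus strand) for TAP2.
HLA-B upstream sequence: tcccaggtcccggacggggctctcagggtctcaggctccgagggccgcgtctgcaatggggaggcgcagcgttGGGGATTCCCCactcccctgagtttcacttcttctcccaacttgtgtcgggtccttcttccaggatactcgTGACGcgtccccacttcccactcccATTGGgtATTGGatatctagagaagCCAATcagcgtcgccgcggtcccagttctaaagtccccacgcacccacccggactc
HLA-C upstream sequence: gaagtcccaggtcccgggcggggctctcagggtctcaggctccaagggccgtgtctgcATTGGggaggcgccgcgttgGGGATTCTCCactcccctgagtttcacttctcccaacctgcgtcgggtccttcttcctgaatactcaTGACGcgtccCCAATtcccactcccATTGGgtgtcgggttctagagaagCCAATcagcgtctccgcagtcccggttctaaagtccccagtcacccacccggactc
HLA-F upstream sequence: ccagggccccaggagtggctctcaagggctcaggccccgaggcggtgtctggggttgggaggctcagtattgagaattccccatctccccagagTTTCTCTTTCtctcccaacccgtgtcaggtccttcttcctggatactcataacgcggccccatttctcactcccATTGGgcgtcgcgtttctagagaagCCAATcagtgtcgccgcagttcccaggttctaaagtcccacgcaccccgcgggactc
B2M upstream sequence: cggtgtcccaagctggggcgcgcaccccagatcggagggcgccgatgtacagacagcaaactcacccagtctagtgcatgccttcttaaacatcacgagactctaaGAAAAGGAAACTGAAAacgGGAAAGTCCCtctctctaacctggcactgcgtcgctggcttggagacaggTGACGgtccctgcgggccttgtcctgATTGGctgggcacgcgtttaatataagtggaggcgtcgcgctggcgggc
TAP2 upstream sequence: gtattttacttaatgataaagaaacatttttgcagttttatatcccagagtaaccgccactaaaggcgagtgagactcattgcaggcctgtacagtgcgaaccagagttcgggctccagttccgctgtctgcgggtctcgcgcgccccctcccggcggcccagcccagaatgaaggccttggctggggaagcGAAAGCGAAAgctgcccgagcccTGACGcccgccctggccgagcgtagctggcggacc

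HLA-B and HLA-C shared a layout. In HLA-B overlapping NF-kappaB matches began 177 and 176 bases upstream, the CRE core began 106 bases upstream, and a reversed and a forward CCAAT box began 81 and 56 bases upstream. In HLA-C the corresponding matches began 172, 105, 80 and 56 bases upstream, and neither gene had an ISRE match. Further CCAAT boxes began 74 bases upstream in HLA-B and 192 and 95 bases upstream in HLA-C. HLA-F kept the pair of CCAAT boxes at 82 and 57 bases upstream, had an ISRE match at 156 bases and had neither a CRE core nor an NF-kappaB match. B2M held all 4 kinds, with overlapping ISRE matches from 144 and 138 bases upstream. TAP1 had overlapping ISRE matches from 134 and 128 bases upstream, an NF-kappaB match 72 bases upstream and a CCAAT box 249 bases upstream. TAP2 had an ISRE match at 58 bases and a CRE core at 35 bases, and TAPBP had an NF-kappaB match at 56 bases and overlapping ISRE matches from 20 and 14 bases. Matches within overlapping pairs share bases and are not separate sites.

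**Figure D1:**
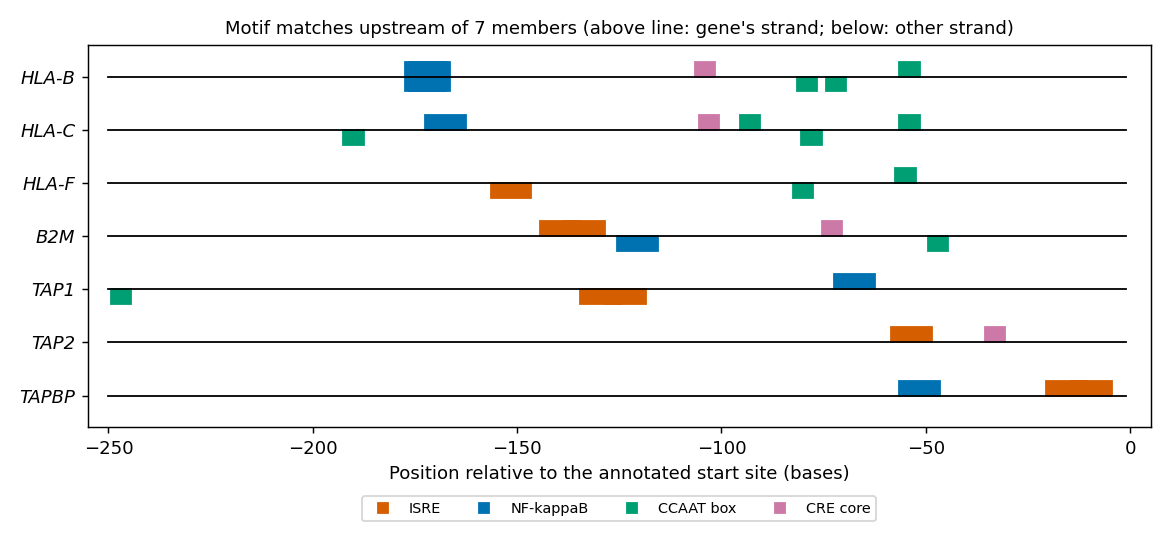
Motif matches upstream of 7 members. The horizontal axis is the position relative to the annotated start in bases, each line is 1 gene, boxes above the line are matches on the gene's strand and boxes below it are matches on the other strand, and colours give the motif. HLA-B and HLA-C share an NF-kappaB, CRE core and CCAAT box layout, HLA-F, B2M, TAP1, TAP2 and TAPBP carry ISRE matches, and no RUNX core appears.

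The light chain had the highest pooled mean of the 9 genes in each table, and HLA-C came next. B2M stood at 7827 (CBFB table), 7661 (KO1) and 7322 (KO2) normalized counts, above 98.0%, 98.2% and 98.4% of the genes listed. HLA-C had 3597, 4787 and 5123 normalized counts in the same order, and HLA-B had 2487, 3651 and 3931. HLA-E, which presents leader peptides of other class I chains to natural killer cell receptors, had 2435, 2578 and 2681 normalized counts. HLA-F, a non-classical chain that can reach the surface without peptide, was far lower at 193, 250.3 and 292, near the middle of the listed genes (percentiles 47.1, 52.6 and 56.8).

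The transporter subunits differed in counts, which are not corrected for transcript length here. TAP2 had 2924, 2299 and 2120.4 normalized counts in the CBFB, KO1 and KO2 tables, and TAP1 had 1084, 1078 and 1035. The TAP2 pooled mean was therefore 2.70 times, 2.13 times and 2.05 times that of TAP1. The longest annotated transcript has 5684 bases for TAP2 and 2959 for TAP1. Per kb of that transcript the ratios were 1.40, 1.11 and 1.07, and per kb of the median annotated length 2.25, 1.78 and 1.71. TAPBP had 1673, 1429 and 1385 normalized counts. NLRC5 was low at 200.4, 200.2 and 203 normalized counts, at percentiles 47.6, 49.4 and 51.2. These pooled means are as deposited, and the tables' scales differ, so levels of a gene are compared between tables only after scaling, below. Counting error of these pooled means, taken as Poisson, ran from 0.404% for B2M to 2.94% for HLA-F, and it covers counting only.

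**Figure D2:**
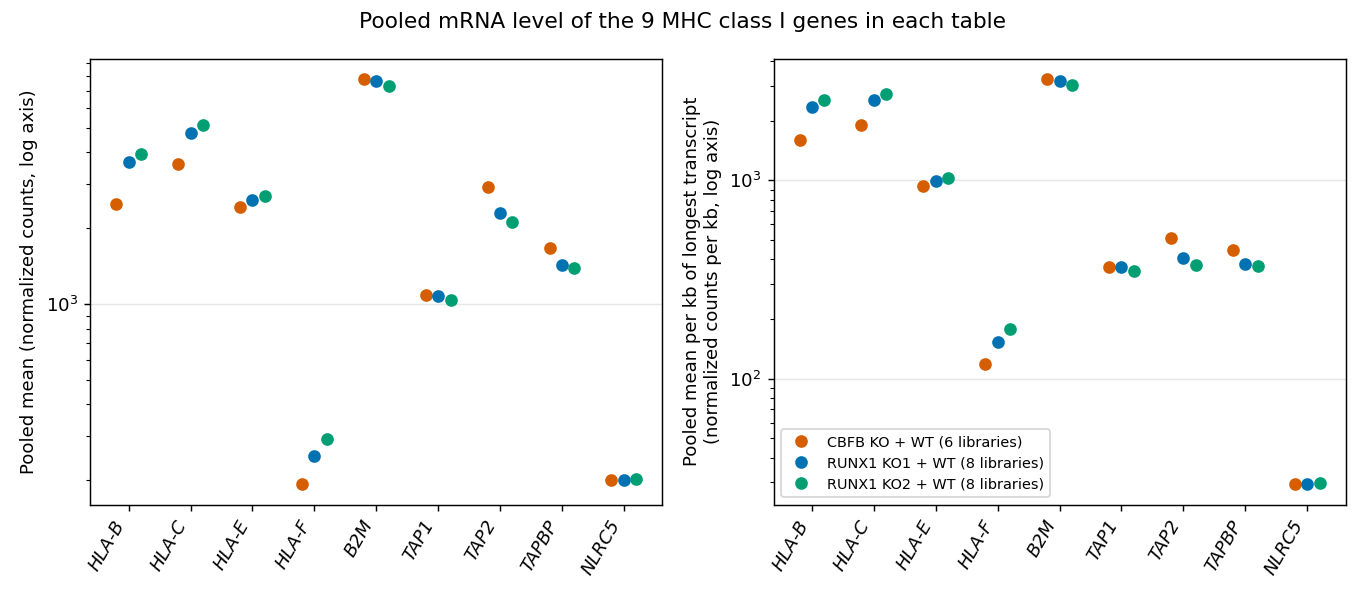
Pooled means of the 9 genes in the CBFB, KO1 and KO2 tables. The left vertical axis gives normalized counts and the right one normalized counts per kb of the longest transcript, both on log axes, and each point is 1 table's pooled mean over WT and knockout libraries, with no error bar because none can be computed. B2M is highest (7322 to 7827 normalized counts) and NLRC5 is lowest per kb (29.3 to 29.8).

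Between genes, levels were compared per kilobase, dividing the pooled mean by the longest annotated transcript. On this scale B2M had 3257 (CBFB table), 3188 (KO1) and 3047 (KO2) normalized counts per kb. HLA-C had 1913, 2546 and 2725 per kb, and HLA-B had 1607, 2359.8 and 2541. B2M was thus 1.70, 1.25 and 1.12 times HLA-C. Set against the 4 heavy chains summed, B2M had 0.712, 0.527 and 0.471 of their level per kb. HLA-E had 936, 991 and 1031 per kb. The loading genes had similar levels, below those of HLA-B, HLA-C and HLA-E and above that of HLA-F, with TAP2 at 514, 405 and 373 per kb, TAPBP at 445, 380.03 and 368, and TAP1 at 366, 364 and 349.6. In the KO2 table TAP2, TAPBP and TAP1 lay within 1.07 times of each other, and their order cannot be told from these values. HLA-F followed at 118, 153 and 179 per kb. NLRC5, with a transcript of 6822 bases, had 29.4, 29.3 and 29.8 per kb, so that B2M was 111, 109 and 102 times NLRC5. Dividing by the median annotated length changed these values: HLA-B was then 1.04 times HLA-E in the CBFB table in place of 1.72 times, and TAP2 was 2.25 times TAP1 in place of 1.40 times. B2M was then 3.50, 2.57 and 2.30 times HLA-C in the CBFB, KO1 and KO2 tables, and 1.22, 0.923 and 0.826 times the 4 heavy chains summed, so the balance of light and heavy chain mRNA depends on the length used.

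The RUNX1 clones could be compared through the libraries that their tables share. A gene with 1 read in all takes a pooled mean that depends only on which library held the read. Genes with such a value in both RUNX1 tables were compared. Of the 8 values in the KO1 table, 4 went with the same KO2 value in more than 95% of their genes, the rule for a pair. All 265 genes with these 4 values fell into the pairs. The tables therefore hold 4 libraries in common, the number of WT samples. No such pairing appeared between the CBFB table and either RUNX1 table, where the largest count in any pair was 8 of 177 genes (KO1) and 9 of 184 genes (KO2). With the same WT libraries in both tables and equal numbers of samples, a difference in pooled mean between the KO1 and KO2 tables comes from the knockout libraries alone once the tables are on 1 scale. The ratio of pooled means then understates the ratio between the clones. Means were put on 1 scale by the median ratio over the 10174 genes with a pooled mean of at least 100 in both tables, 1.07.

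On that scale 8 of the 9 genes had a KO1/KO2 ratio below 1, where 50% of all 10174 genes lie by construction. The heavy chains lay lowest. HLA-F had a ratio of 0.798, lower than that of all but 5.13% of genes, HLA-B had 0.864 (percentile 13.6), HLA-C had 0.870 (14.5) and HLA-E had 0.895 (19.2). The middle 90% of all genes ran from 0.796 to 1.13. NLRC5 had 0.917, TAPBP 0.960, TAP1 0.970, B2M 0.974 and TAP2, the member above 1, had 1.01. B2M, TAP1, TAP2 and TAPBP each crossed 1 under 2 of the 7 other scalings tried, so their side of 1 is not settled. The median over the 4 heavy chains was 0.867 and over the other 5 members 0.970, a split made after the values were seen. In bulk RNA, fewer cells expressing a gene and less of its mRNA per cell cannot be told apart.

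With the scale taken from the 4 shared libraries (1.06, range 1.05 to 1.07 over the libraries), 8 of 9 members were again below 1, against 44.9% of genes. On this scale the heavy chain mRNA of clone KO2 was at least 1.14 times that of KO1 for HLA-B, 1.13 times for HLA-C, 1.10 times for HLA-E and 1.24 times for HLA-F. In normalized counts of the KO1 table, the clone means differed (KO1 minus KO2) by -1034 for HLA-B, -1286 for HLA-C, -527 for HLA-E and -119 for HLA-F. The bounds for B2M (1.01 times), TAP1 (1.02 times), TAPBP (1.03 times) and NLRC5 (1.08 times) were smaller. TAP2 went the other way, with KO1 at least 1.02 times KO2. These bounds were taken at the mean scale of the 4 libraries. Over the range of scales they fell as low as 1.23 times for HLA-F, 1.07 times for NLRC5, 1.02 times for TAPBP and 1.01 times for TAP2. The bounds assume a single scale for every gene, and they have no spread between samples beside them.

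**Figure D3:**
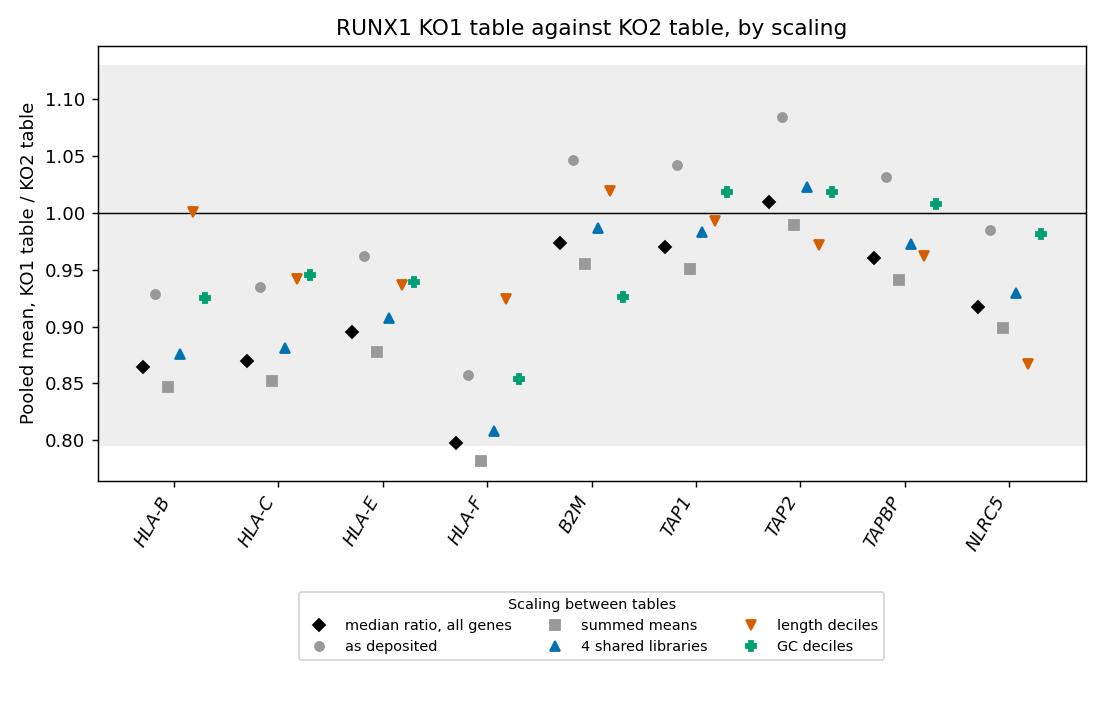
Ratio of the pooled mean in the KO1 table to that in the KO2 table for the 9 genes. The vertical axis is the ratio, each symbol is 1 way of scaling the tables, the line marks 1 and the grey band holds the middle 90% of all genes under the median scaling (0.796 to 1.13). HLA-C, HLA-E, HLA-F and NLRC5 stay below 1 under all scalings shown, while HLA-B reaches 1.001 in deciles of transcript length.

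Transcript length, taken as that of the longest annotated transcript, moved with these ratios across all genes. The median KO1/KO2 ratio rose from 0.863 in the shortest decile of transcripts (up to 1709 bases) to 1.06 in the longest decile. HLA-B (1547 bases) and HLA-F (1635 bases) belong to the shortest decile, HLA-C (1880 bases) to the next, HLA-E (2601 bases) and B2M (2403 bases) to the one after. TAP2 (5684 bases) and NLRC5 (6822 bases) are long. Scaled within deciles of length, HLA-B had a ratio of 1.001, HLA-C 0.942, HLA-E 0.937 and HLA-F 0.924, at percentiles 50.6, 24.5, 22.9 and 19.1, and 7 of the 9 members were below 1 (50% of all genes by construction). HLA-B thus lay at the middle of the genes with transcripts as short. NLRC5 moved the opposite way, to 0.867 at percentile 8.14, while within deciles of GC content it had 0.982 at percentile 41.7. The part of transcript length in the differences between clones was not tested.

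**Figure D4:**
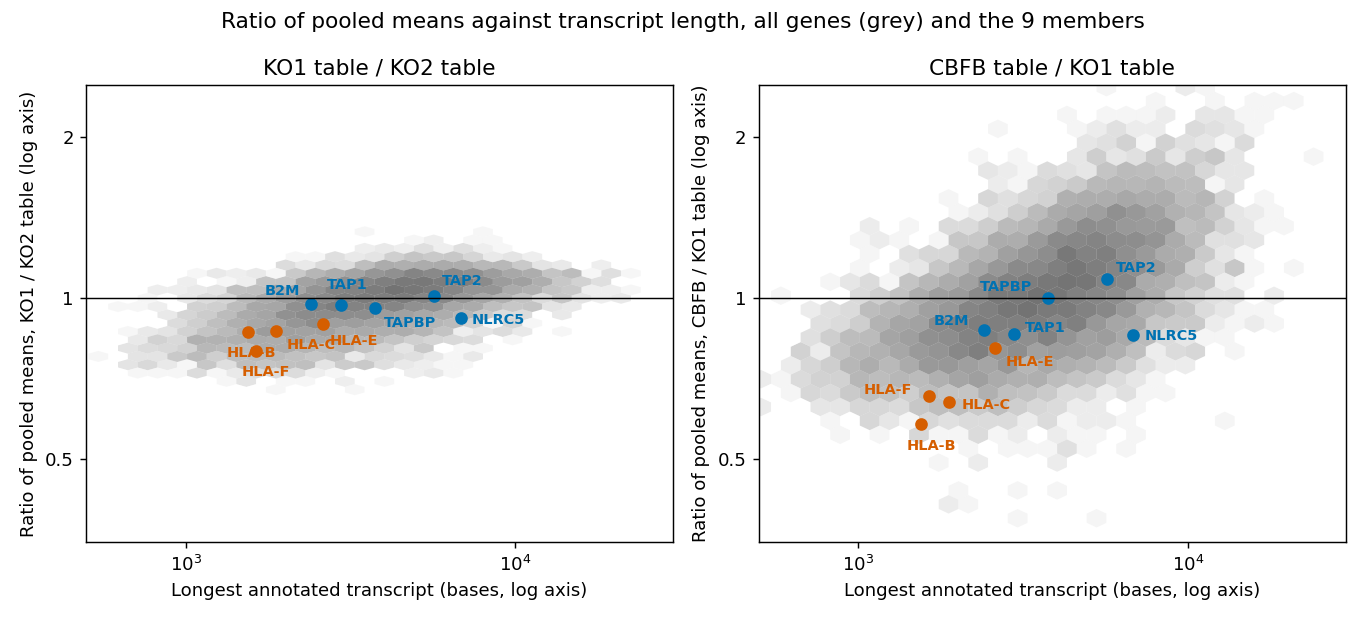
Ratio of pooled means against the longest annotated transcript, both on log axes. Grey cells count all genes with a pooled mean of at least 100 in both tables (darker is more genes), and the labelled points are the 9 members, heavy chains in orange and the others in blue. Ratios rise with length in both panels (left, KO1 over KO2; right, CBFB over KO1), and HLA-B lies at 0.581 in the right panel, below most genes of its length.

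The CBFB and RUNX1 experiments share no library, so genotype and experiment cannot be told apart in what follows, and the values of WT and knockout libraries are mixed on both sides. The tables were normalized separately and were put on 1 scale by their median ratio, 1.17 for CBFB over KO1 (10531 genes) and 1.27 for CBFB over KO2 (10064 genes). The KO1 and KO2 tables hold the same WT libraries, so the ratios to them are not independent and are given side by side.

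The heavy chains stood lower in the CBFB table than in either RUNX1 table. HLA-B had a CBFB/KO1 ratio of 0.581 and a CBFB/KO2 ratio of 0.498, at percentiles 1.68 and 1.61 of all genes. HLA-C had 0.641 and 0.553 (percentiles 3.31 and 3.49), and HLA-F had 0.657 and 0.520 (percentiles 3.79 and 2.31). HLA-E was closer to the other genes, with 0.805 and 0.715 (percentiles 17.4 and 15.8). These 4 genes were below 1 under every scaling tried. The ranges were 0.581 to 0.717 (over KO1) and 0.498 to 0.692 (over KO2) for HLA-B. For HLA-E they were 0.805 to 0.944 and 0.715 to 0.908, closer to 1.

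The light chain and the loading genes differed less. B2M had ratios of 0.871 and 0.841, TAP1 0.857 and 0.824, and TAPBP 0.999 and 0.951. TAP2 was the member above 1 in both, with 1.08 and 1.09. NLRC5 had 0.854 and 0.776. Of the 9 members, 8 were below 1 in each comparison, against 50% of all genes by construction. Below 0.8, a limit chosen after the values were seen, there were 3 members over KO1 (HLA-B, HLA-C and HLA-F), against 16.5% of all genes. Over KO2 there were 5 members (HLA-E and NLRC5 in addition), against 25.4%. Without rescaling, B2M, TAP1 and TAPBP were above 1 in both comparisons and NLRC5 was above 1 over KO1, while TAP2 was below 1 in deciles of transcript length, so that a direction for these genes depends on the scaling.

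Length moved with these ratios as well. The median CBFB/KO1 ratio rose from 0.811 in the shortest decile of transcripts to 1.31 in the longest, and the median CBFB/KO2 ratio rose from 0.719 to 1.39. Within deciles of length, set by the longest annotated transcript, all 9 members were below 1 in both comparisons (50% of all genes). The median annotated length is 732 bases for B2M against a longest of 2403, and 1019 for NLRC5 against 6822. Deciles of the median length were not tried, so this count rests on the length chosen. HLA-B then had 0.717 and 0.692 (percentiles 6.34 and 9.63), HLA-C 0.742 and 0.693, and HLA-F 0.761 and 0.723. NLRC5 then had 0.717 and 0.622, at percentiles 6.35 and 4.88 of all genes scaled in this way. Within deciles of GC content NLRC5 had 0.969 and 0.945, at percentiles 44.1 and 41.8. B2M was lowest when scaled within deciles of GC content, at 0.746 and 0.688. Its longest transcript had 40.6% GC, the lowest of the 9. The part of length and GC content in the differences between experiments was not tested.

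**Figure D5:**
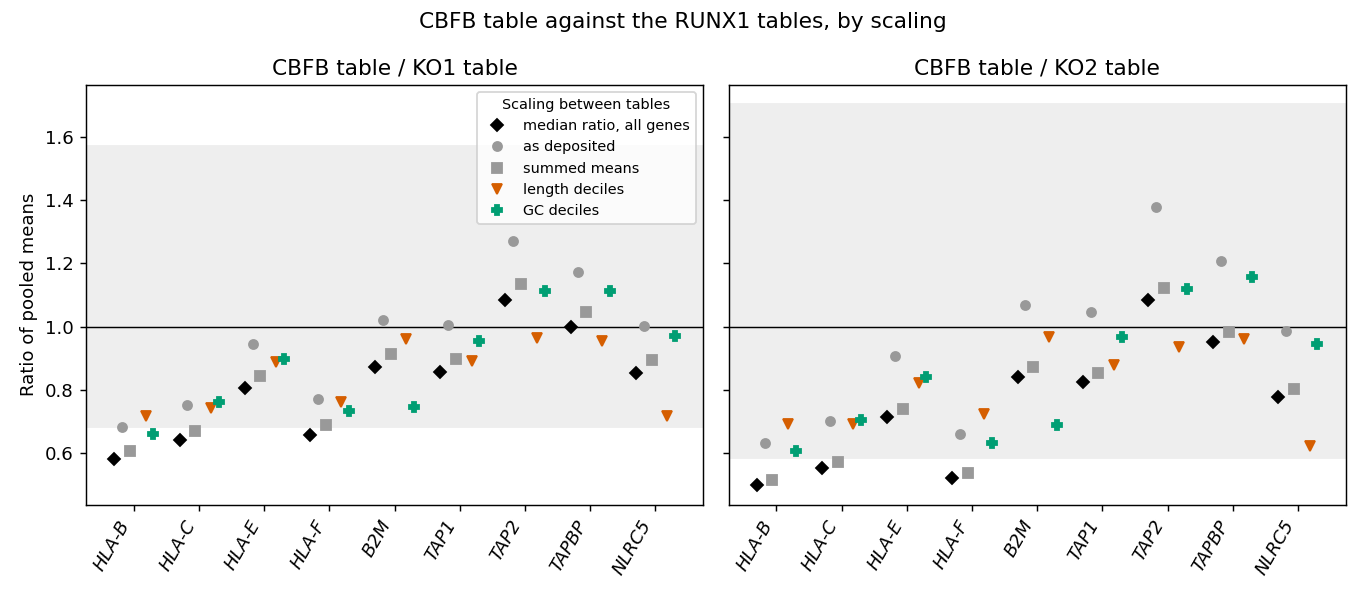
Ratio of the pooled mean in the CBFB table to that in the KO1 table (left) and KO2 table (right). The vertical axis is the ratio, each symbol is 1 way of scaling the tables, the line marks 1 and the grey bands hold the middle 90% of all genes under the median scaling. HLA-B, HLA-C, HLA-E and HLA-F lie below 1 under each scaling, and TAP2 lies above 1 in all but the length deciles.

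Another 40 genes of the pathway were set beside the 9 members, and all 40 were listed in at least 1 table. Of these, 28 had a pooled mean of at least 100 in both RUNX1 tables, of which 13 had a KO1/KO2 ratio below 1 and 15 above, with a median of 1.004, against 50% of all genes below 1. Over the 9 members the median was 0.917. The split depended on the scaling, with 5 of the 28 below 1 as deposited and 17 below 1 by summed means. All genes moved together between these scalings, and their ranks did not change. The median ratio over all genes was 1.07 as deposited, and the divisor by summed means was 1.10. Fewer than 50% of all genes were thus below 1 as deposited, and more than 50% by summed means. Among the other heavy chains 4 of 8 genes passed that minimum and 3 were below 1, or 2 as deposited.

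The immunoproteasome subunits PSMB8 and PSMB9, which cut peptides suited to class I, had KO1/KO2 ratios below that of HLA-B. PSMB8 had 595, 637 and 728 normalized counts and a ratio of 0.814 (percentile 6.82). PSMB9 was low, with 60.6, 50.3 and 65.0 normalized counts. Its ratio of 0.720 was the lowest among those of the 40 genes listed in both RUNX1 tables. ERAP1, the aminopeptidase that trims peptides in the endoplasmic reticulum, had 1065, 806 and 711 normalized counts and a ratio of 1.06. Of the 7 genes of peptide supply and trimming, 3 passed the minimum in both RUNX1 tables. Of these 3, 2 were below 1, against 50% of all genes by construction. Within deciles of transcript length the lowest KO1/KO2 ratio was 0.852 among these 3 genes. PSMB10 and PSME2 had 621 and 1628 normalized counts in the KO1 table. They were not listed in the KO2 table and so had no KO1/KO2 ratio.

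The folding chaperones were among the most abundant mRNAs. CALR had 20439, 20013 and 19999 normalized counts with a KO1/KO2 ratio of 0.931, CANX had 25289, 17566 and 15165 with 1.08, and PDIA3 had 11427, 10298 and 9894 with 0.969. Of the 5 folding and loading genes, 4 passed the minimum and 3 were below 1, against 50% of all genes by construction.

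Of the 20 regulators 17 passed the minimum, and 5 had a KO1/KO2 ratio below 1 and 12 above, with a median of 1.02. Of all genes, 50% were below 1 on this scale by construction. As deposited 1 regulator was below 1 and 16 above, and by summed means 9 were below and 8 above. These scalings change only the constant that divides all genes, so the rank of each regulator among all genes stayed the same. RFXANK, with 757 normalized counts in the KO1 table, was not listed in the KO2 table and so had no KO1/KO2 ratio. RFX5, a subunit of the factor that brings NLRC5 to class I promoters, had 833, 714 and 661 normalized counts and a ratio of 1.01. IRF1, which binds the ISRE, had 277, 259.7 and 256 and a ratio of 0.942. Among those of the 40 genes listed in both RUNX1 tables, FCGRT, the neonatal Fc receptor heavy chain, had the highest ratio, 3.25. Its pooled means of 6.62 (KO1) and 1.90 (KO2) rest on few reads.

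Markers of the line and of other cells were read from the same tables. All 8 epithelial markers were listed in the CBFB and KO1 tables, and KRT14 was not listed in the KO2 table. Their pooled means ran from 730 (TP63 in the KO2 table) to 101688 normalized counts (KRT5 in the KO1 table). They did not move together between tables. KRT17, a basal keratin, had CBFB/KO1 and CBFB/KO2 ratios of 0.187 and 0.121, while EGFR had 2.10 and 2.39 and TP63 had 1.44 and 1.73. Between the clones the KO1/KO2 ratio ran from 0.652 (KRT17) to 1.22 (TP63), a wider range than that of the members, and the part of such differences in the ratios of the class I genes was not tested. The markers of professional antigen-presenting cells were near 0. CD74 had 0.145, 0.127 and 0.0970 normalized counts, and HLA-DRA and CIITA were at or below 0.254 or not listed. Among the leukocyte markers PTPRC was at 0.463 or not listed and CD14, which epithelial cells can express, had 142, 128 and 141. Of the fibroblast or endothelial markers, COL1A1 had 284, 305 and 236 normalized counts with a KO1/KO2 ratio of 1.21, and PDGFRB and PECAM1 were at or below 3.42.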

How the data were processed

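RNA-seq of MCF10A cells gave 18 samples in 5 groups, taken from the labels. Per the labels, reads were processed with Trimmomatic, STAR and DESeq2 on hg19, with versions not given in the sources used here. The labels name an mRNA kit, the study's methods the removal of ribosomal RNA. The signal used was the authors' deposited mean of DESeq2-normalized counts per gene over all libraries of a table. The 5 other value columns of each table hold the authors' own comparison (fold change, its error, test statistic and p-values) and were not used. Of per-sample values there were 0 columns. The sum of the means was 20214423 (CBFB), 18050386 (KO1) and 16467400 (KO2), and library size factors, read from single-read means, ran from 0.562 to 1.29.

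Because no value per library was available, no count test or comparison of knockout with WT was made. Ratios between tables were computed with Python 3.11.15 and pandas 2.3.3 after scaling by the median ratio over genes with a mean of at least 100. The median scaling, the single-read values and the clone difference were tested on simulated Poisson counts without a trend in length or GC content. The length and GC scalings and the motif search were not tested in this way. Transcript lengths and GC content came from GENCODE release 29, and coordinates are those of the RefSeq windows only. For TAP1, with 2 windows, the one at the annotated 5′ end of the gene was used. The members and lists were chosen with earlier results of these data known. Named genes were all 9 members, 10 set partners (some not reported here) and the pathway genes with the highest and lowest KO1/KO2 ratio; the marker genes named outside this rule were chosen after their values were seen. Alternatives were other scalings, minimum means and transcript lengths, of which the shared-library, length and GC scalings were added after seeing the data.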

Additional observations from a re-analysis of the deposited data

How the results depend on the processing

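Without rescaling the tables, the median KO1/KO2 ratio over the 9 members was 0.985 with 5 members below 1, against 0.917 and 8. In the same way the CBFB/KO1 ratio was 1.001 with 4 members below 1 (0.854 and 8 with scaling), and the CBFB/KO2 ratio was 0.986 with 5 (0.776 and 8). Over all genes compared, the median ratios as deposited were 1.07 (KO1/KO2), 1.17 (CBFB/KO1) and 1.27 (CBFB/KO2). Fewer than 50% of all genes were therefore below 1 without rescaling. The percentile of each member among all genes was the same with and without the median scaling. Scaling within deciles of GC content moved the median CBFB/KO2 ratio to 0.840. Dividing by the median annotated transcript length moved the median level per kb of the members from 514 to 1288 (CBFB table), from 405 to 1099.7 (KO1 table) and from 373 to 1066 (KO2 table), since the divisor is shorter. The members that kept their side of 1 under all scalings were 4 (KO1/KO2), 4 (CBFB/KO1) and 5 (CBFB/KO2) of 9. The cause of the differences between scalings was not tested. Leaving out a replicate was not possible because only means over all libraries were used. No paired analysis was possible because the columns used carry no replicate. Depth limits HLA-F and NLRC5 most, and without values per library the spread between samples of every ratio is unknown.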
